A study of Homo sapiens with 2 samples.

Results

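The torsins and VCP are ATPases of the AAA+ class, enzymes that work as rings and use ATP to pull on or remodel other proteins. All 6 genes sought by name, TOR1A, TOR1B, TOR2A, TOR3A, TOR4A and VCP, were found in a deposited table of 332 genes for chaperones and other proteins that help proteins fold (the chaperome). The table comes from a series on RNA binding by HSP70 and on transcription by RNA polymerase III. It holds total RNA of the HEK293 Flp-In T-Rex line, human embryonic kidney cells in which a transgene can be placed at a fixed recombination site. There was 1 group with 2 replicates, so genes were compared with each other and no treatment was tested. The design text describes 2 derived lines, with 3xFLAG-HBH-tagged GFP or HSPA1A under tetracycline for 16 hours, but the labels of the sequenced samples name neither line nor any induction. The labels do not state whether separate cultures were used, so the spreads and p-values below may be technical and speak only of these libraries. The table held no marker genes of kidney lines, and the label of the line was not checked against expression.

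VCP, also called p97, is a ring of the cytosol and nucleus that pulls ubiquitin-tagged proteins out of membranes and complexes so that the proteasome can degrade them. The torsins are the AAA+ proteins of the lumen of the endoplasmic reticulum and of the space inside the nuclear envelope. TOR1A encodes torsinA, known from an inherited dystonia, and needs the membrane proteins LAP1 (TOR1AIP1) and LULL1 (TOR1AIP2) to hydrolyse ATP. TOR1B encodes its close relative torsinB. TOR2A, TOR3A and TOR4A encode more distant members, of which TOR3A is known as an interferon-responsive gene.

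The library totals behind the deposited RPKM (reads scaled to gene length in kilobases and to library size) were 6828264 reads in replicate 1 and 4445676 in replicate 2. The chaperome genes took 192352 and 126085 of these reads, and the 6 members took 2582 and 1621, or 1.34% and 1.29% of the chaperome reads. The authors' RPKM divides by the genomic span of a gene, introns included. Levels are therefore given on 3 scales, the authors' RPKM by genomic span, RPKM by the union of annotated exons, and RPKM by the longest coding transcript (the last 2 from GENCODE 29). In GENCODE 29, 202 of the 332 genes had the deposited start and 203 the deposited end. Exon-based lengths may therefore differ from those of the regions counted. Errors are SD over both replicates, which can lie well below counting error where the replicates happen to agree. Intervals in square brackets are exact 95% intervals of a single library and cover counting error only.

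The highest member by a wide margin was VCP (ENSG00000165280, chromosome 9, 35053928 to 35072668 on the minus strand of GRCh38). It had 1938 reads in replicate 1 and 1179 in replicate 2. These gave 15.1 RPKM [14.5 to 15.8] and 14.2 RPKM [13.4 to 14.98] by genomic span. Both libraries put VCP at nearly the same level, 14.6 ± 0.703 RPKM, rank 26 of 332. Per kilobase of exon it stood at 50.5 ± 2.42 RPKM (rank 33), and per kilobase of its longest coding transcript at 62.8 ± 3.01 RPKM (rank 38). The deposited row names the transcript VCP-236, which is not in GENCODE 29. GENCODE 29 places the gene at 35056064 to 35073249, shifted against the deposited span. The exon-based levels and ranks of VCP therefore rest on lengths from another gene model. All 5 torsin genes together held 644 reads in replicate 1 and 442 in replicate 2, and these were 0.332 and 0.375 times the VCP reads.

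TOR4A (ENSG00000198113, chromosome 9, 137277726 to 137282641, plus strand) lay at the other end. It had 9 reads in replicate 1 and 5 in replicate 2, or 0.268 RPKM [0.123 to 0.509] and 0.229 RPKM [0.0743 to 0.534] by genomic span. Its mean was 0.248 ± 0.0278 RPKM, rank 232. With both libraries low and few reads in either, its level is known only to within the wide intervals given. The ratio of VCP to TOR4A by genomic span was 56.5 [29.7 to 124] in replicate 1 and 61.8 [26.4 to 191] in replicate 2. Per kilobase of exon the mean ratio was 172 ± 11.04, with intervals of [86.3 to 360] in replicate 1 and [76.9 to 555] in replicate 2. The ratio rose since introns make up most of the VCP span and little of the TOR4A span, whose ratios to exonic length were 3.45 and 1.18.

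The bases before the RefSeq starts of these 2 genes are shown because the genes are the ends of the range. They are the 250 bases before that start on GRCh38.p14, read along the strand of each gene, for VCP chr9:35072626-35072875 (minus strand) and for TOR4A chr9:137277476-137277725 (plus strand). Other annotations start VCP further out: read along the strand, the window begins outside the deposited span, which ends at 35072668, and its last bases run into it. The whole window lies inside the GENCODE 29 gene, which ends at 35073249. Capitals mark CCAAT, the letters of the CCAAT box, or ATTGG, the same letters on the other strand.
VCP: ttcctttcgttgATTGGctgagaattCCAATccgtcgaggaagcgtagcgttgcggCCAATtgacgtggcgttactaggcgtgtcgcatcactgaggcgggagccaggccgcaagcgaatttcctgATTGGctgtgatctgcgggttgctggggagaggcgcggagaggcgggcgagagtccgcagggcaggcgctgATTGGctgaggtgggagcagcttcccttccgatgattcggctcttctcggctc
TOR4A: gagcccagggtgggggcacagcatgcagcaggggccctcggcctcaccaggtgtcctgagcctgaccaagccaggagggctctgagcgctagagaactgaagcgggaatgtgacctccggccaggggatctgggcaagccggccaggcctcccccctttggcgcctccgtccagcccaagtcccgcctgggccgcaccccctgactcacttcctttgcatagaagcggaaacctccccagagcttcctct

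The VCP window held 5 CCAAT matches over both strands and the TOR4A window 0. Among 35116 RefSeq promoter windows of the same length, 32.0% held at least 1 match and 0.319% held 5 or more. The TOR2A and TOR3A windows each held 1 CCAAT match and 1 match to GGGCGG, the GC box, which 42.6% of all windows held and which was found in neither window shown. None of the 4 windows held TATAAA, the heat shock letters GAANNTTC or the element of the endoplasmic reticulum stress response known as ERSE (held by 10.7%, 5.78% and 0.0740% of all windows, both strands searched). ERSE contains CCAAT and so overlaps it. GC content was 60.8% for VCP and 66.8% for TOR4A, against a median of 58% over all windows. A match is a string of letters, not a site shown to be used.

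**Figure D1:**
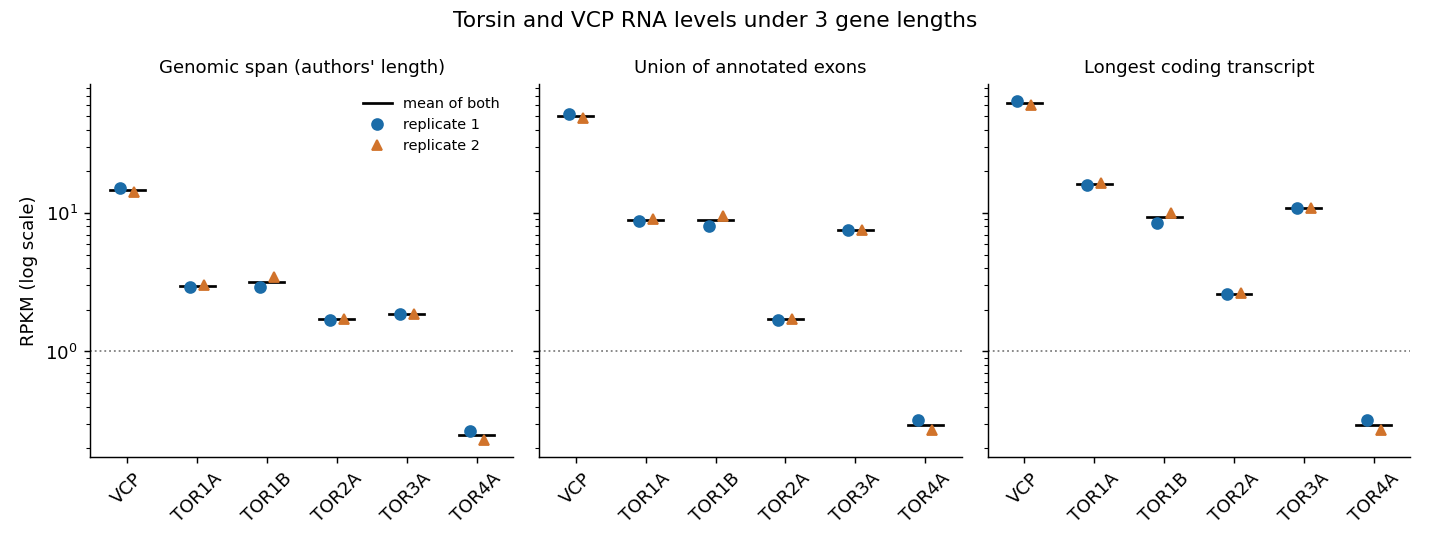
RPKM of each member on a log axis, by genomic span (left), by exon union (middle) and by longest coding transcript (right). Circles are replicate 1, triangles replicate 2, black bars their mean and the dotted line 1 RPKM; VCP is highest and TOR4A lowest in all 3 panels, while TOR3A lies next to TOR2A on the left and near TOR1B in the other panels.

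The neighbouring genes TOR1A and TOR1B were the highest torsins by genomic span and could not be ordered on that scale. TOR1A (ENSG00000136827, chromosome 9, 129812942 to 129824244, minus strand) had 227 reads in replicate 1 and 152 in replicate 2. Its levels were 2.94 RPKM [2.57 to 3.35] and 3.03 RPKM [2.56 to 3.55], a mean of 2.98 ± 0.0592 RPKM at rank 69. TOR1B (ENSG00000136816, chromosome 9, 129803157 to 129811281, plus strand) had 161 and 124 reads, which gave 2.90 RPKM [2.47 to 3.39] and 3.43 RPKM [2.86 to 4.09], a mean of 3.17 ± 0.375 RPKM at rank 65. TOR1A was the slightly higher gene in replicate 1 and the lower one in replicate 2, and the intervals overlapped in both.

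The ratio of TOR1A to TOR1B by genomic span was 1.01 [0.825 to 1.25] in replicate 1 and 0.881 [0.690 to 1.13] in replicate 2. On the log2(RPKM + 1) scale the difference was -0.06 (SE 0.091, from the replicate SD pooled over all genes of the table), which did not exceed its 95% limit. Per kilobase of exon the difference again did not pass its limit, at 8.95 ± 0.178 RPKM for TOR1A and 8.84 ± 1.05 RPKM for TOR1B, with a ratio of 1.02 ± 0.101. Per kilobase of the longest coding transcript, TOR1A was higher in both replicates. It stood at 16.0 and 16.5 RPKM against 8.52 and 10.1 RPKM for TOR1B, a ratio of 1.76 ± 0.174 and a log2 difference of 0.75 (SE 0.138). The exon union of TOR1A is 3766 bases and its 1 coding transcript 2076 bases, whereas TOR1B has 2911 and 2769 bases, so the choice of length moves TOR1A more.

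Both genes have 5 exons in their longest coding transcript and lie with their 3' ends facing, 1660 bases apart by the deposited positions. In GENCODE 29 they do not overlap. The longest run of identical bases between the transcripts TOR1A-201 and TOR1B-201 was 16 bases. Of the 50-base windows of these transcripts, 0 of 2027 for TOR1A and 0 of 2720 for TOR1B were found in an annotated transcript of another gene on either strand. The deposited row of TOR1B names TOR1B-204, a processed transcript of 516 bases without a coding sequence, but its start and end are those of a far longer gene.

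**Figure D2:**
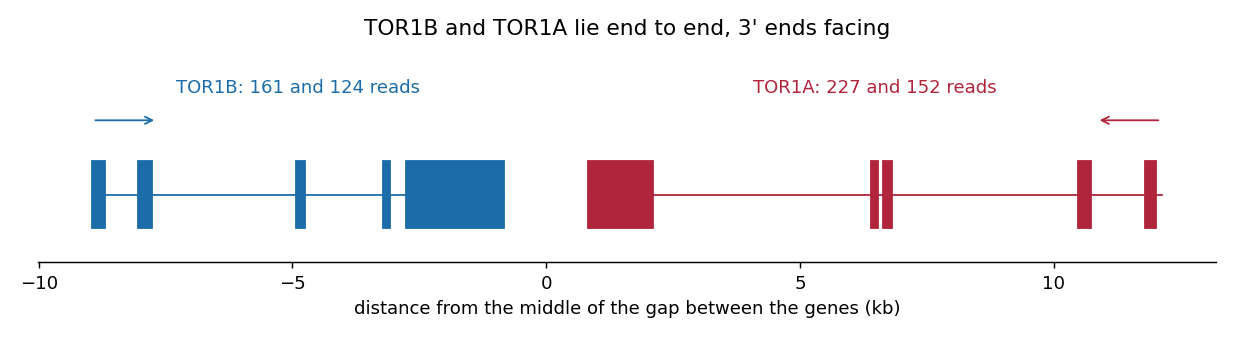
Map of TOR1B and TOR1A in kilobases from the middle of the gap between them, with the exons of the longest coding transcript as boxes, the deposited span as a line and an arrow for the direction of transcription. TOR1A carried 227 and 152 reads and TOR1B 161 and 124 reads in replicates 1 and 2, and the long last exons face each other across the gap.

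Among the genes of the table, 22 pairs were next to each other on a chromosome and less than 50 kb apart, overlapping pairs included. Genes outside the table can lie between the 2 genes of a pair. By genomic span, TOR1A and TOR1B differed by 0.06 in absolute log2(RPKM + 1), against a median of 0.59 over the 22 pairs. Of the 4 pairs in which both genes reached 1 RPKM by genomic span, TOR1A with TOR1B was the closest on that scale. The others were DNAJC5 with PRPF6 (0.17), ATAD3B with ATAD3A (0.48) and HSPD1 with HSPE1 (1.91). By exon union TOR1A and TOR1B differed by 0.020 and were again the closest of the 4, but by longest coding transcript they differed by 0.75 and ATAD3B with ATAD3A by 0.34. With so few pairs this is a description, and differences among low genes are small on this scale by construction.

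TOR2A and TOR3A formed the next level by genomic span. TOR2A (ENSG00000160404, chromosome 9, 127731524 to 127735313, minus strand) had 44 reads in replicate 1 and 29 in replicate 2, at 1.70 RPKM [1.24 to 2.28] and 1.72 RPKM [1.15 to 2.47]. TOR3A (ENSG00000186283, chromosome 1, 179082070 to 179098023, plus strand) had 203 and 132 reads, at 1.86 RPKM [1.62 to 2.14] and 1.86 RPKM [1.56 to 2.21]. The ratio of TOR2A to TOR3A was 0.919 ± 0.00878, with intervals of [0.643 to 1.27] in replicate 1 and [0.596 to 1.39] in replicate 2. The log2 difference between TOR2A and TOR3A, -0.08 (SE 0.091), did not pass its limit. Their ranks were 112 and 106.

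The likeness of TOR2A and TOR3A was lost with exonic length in place of genomic span, a change that shortened TOR3A but not TOR2A. TOR3A, whose span is 4.07 times its exonic length, stood at 7.59 ± 0.00679 RPKM per kilobase of exon. TOR2A, whose annotated exons fill its whole span because some of its transcripts retain introns, stayed at 1.71 ± 0.0148 RPKM. The ratio of TOR2A to TOR3A was then 0.225 ± 0.00215, with intervals of [0.158 to 0.311] in replicate 1 and [0.146 to 0.341] in replicate 2. The log2 difference was -1.66 (SE 0.125), called in the same direction in both replicates. With the longest coding transcripts, of 2477 bases for TOR2A and 2724 bases for TOR3A, the ratio was 0.240 ± 0.00229. Its intervals were [0.168 to 0.332] in replicate 1 and [0.156 to 0.363] in replicate 2. The deposited rows name shorter coding transcripts, TOR2A-203 of 1523 bases and TOR3A-202 of 519 bases. Ratios with these lengths were not computed, and the size of the difference depends on the lengths used. By exon union the log2 differences of TOR3A from TOR1A and TOR1B did not pass the limit (TOR1A minus TOR3A 0.21, TOR1B minus TOR3A 0.19, SE 0.125 each). By longest coding transcript TOR1A minus TOR3A was 0.53 (SE 0.138) and was called. TOR1B minus TOR3A, at -0.21 on that scale, was not called.

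TOR2A also shares ground with a neighbour. Its 3' end overlaps that of TTC16, a tetratricopeptide-repeat gene on the opposite strand, by 77 bases in GENCODE 29, and 27 of the 2428 windows of 50 bases in TOR2A-202 were also found in a TTC16 transcript. The library kit keeps strand, but no source used here says whether the counting used it, and reads from the overlap then cannot be told apart. TTC16 had 1 read in each replicate. For TOR4A, 64 of 4099 windows were shared with transcripts of 282 other genes, and for TOR3A and VCP 0 windows were shared.

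Over all 15 pairs of members, 13 differed beyond the 95% limit with the same sign in both replicates by genomic span, 12 by exon union and 14 by longest coding transcript. The same rule called 86.1%, 91.3% and 91.3% of all pairs of genes in the table on these scales, so the members' counts are near the background. VCP exceeded every torsin on each scale. The smallest of these log2 differences by genomic span was 1.91 over TOR1B (SE 0.091), with a ratio of 5.22 [4.44 to 6.17] in replicate 1 and 4.12 [3.42 to 5.00] in replicate 2. Over TOR1A the ratio of VCP was 5.15 [4.49 to 5.93] and 4.68 [3.95 to 5.58]. TOR4A was below every other member on each scale, with TOR2A 6.93 ± 0.836 times higher by genomic span and 5.84 ± 0.704 times higher per kilobase of exon. By genomic span the intervals of this ratio were [3.06 to 14.8] in replicate 1 and [2.88 to 24.9] in replicate 2. No p-value is given for these differences, because 0.5 is the smallest that 2 replicates allow in an exact test. Their limit rests on a single SD pooled over all genes, which can understate the spread of members with few reads. No allowance was made for the 15 comparisons.

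At a mean of 1 RPKM or more by genomic span, 5 of the 6 members were counted, all but TOR4A. The share over the whole table was 46.4%. Per kilobase of exon and of the longest coding transcript the same 5 members were counted, where 74.4% and 76.8% of the table reached this level. The median rank of the members was 87.5 of 332 by genomic span and 128 per kilobase of exon, and 169.5 by reads alone, which are not divided by length. The rank of TOR2A moved most with exonic length, to 234. VCP kept a high place throughout, at rank 24 by reads alone.

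**Figure D3:**
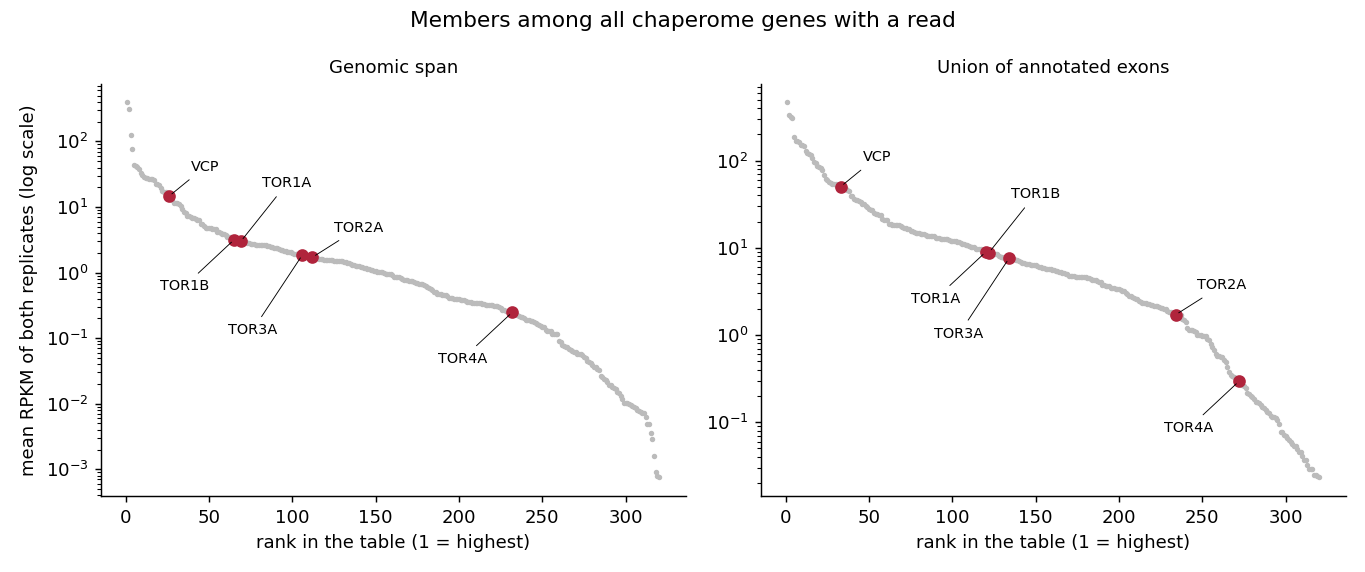
Mean RPKM on a log axis against rank for all genes with a read (grey), with the members in red, by genomic span (left) and by exon union (right). VCP sits at ranks 26 and 33, TOR1A and TOR1B at 69 and 65 on the left and 120 and 122 on the right, and TOR4A at 232 and 272.

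For none of the members was a difference between the libraries beyond counting error detected. In an exact binomial test of reads between replicate 1 and replicate 2, with the library totals as exposure and Benjamini-Hochberg adjustment over the table, 0 of 6 members were called, and 0 had an unadjusted p under 0.05. The same test called 4.69% of the 320 genes with a read, and 17.2% had an unadjusted p under 0.05. VCP came closest, with a log2 ratio of replicate 1 over replicate 2 of 0.10 (unadjusted p = 0.0669, adjusted p = 0.331, exact binomial test). TOR1B had the largest log2 ratio, -0.24, with an unadjusted p = 0.164 in the same exact test. TOR3A had 29.7 RPM (reads scaled to library size only) in both libraries. For TOR4A, with 9 and 5 reads, even a large difference between the libraries would not have been detectable at this depth.

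The torsin activators LAP1 and LULL1 are not analysed here, since the table has no row for TOR1AIP1 or TOR1AIP2. Of a list of 64 symbols of other AAA+ ATPases, 8 were in the table, and VCP was the highest of the 14 AAA+ genes on all 3 length scales. By genomic span the members had a median of 2.42 RPKM, these 8 genes 1.99 RPKM and all 332 genes 0.784 RPKM. The order of the first pair of medians turned on the other scales, with 8.21 RPKM for the members and 8.54 RPKM for the 8 genes by exon union, and 10.1 RPKM and 19.0 RPKM by longest coding transcript. Of the 8, 5 reached 1 RPKM by genomic span and 7 by exon union, against 46.4% and 74.4% of all 332 genes. BCS1L, which assembles respiratory complex III in mitochondria, was next after VCP by genomic span at 6.35 and 7.60 RPKM. ATAD3A, a mitochondrial membrane AAA+ protein, stood at 3.69 and 3.20 RPKM. Per kilobase of exon ATAD3A came second to VCP at 25.3 ± 2.55 RPKM, ahead of BCS1L at 9.66 ± 1.22 RPKM. The ATAD3 genes are near-identical copies, so the split of reads between ATAD3A, ATAD3B (7.42 ± 1.01 RPKM per kilobase of exon) and ATAD3C (2 reads and 0 reads) is uncertain.

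The mitochondrial proteases LONP1 and AFG3L2 lay at 13.9 ± 1.33 and 13.1 ± 0.753 RPKM per kilobase of exon, above each torsin. The mitochondrial unfoldases CLPX and CLPB lay at 5.91 ± 0.208 and 4.63 ± 0.757 RPKM per kilobase of exon, between TOR3A and TOR2A. By genomic span the order was another: TOR1A and TOR1B were above LONP1 (2.45 RPKM) and AFG3L2 (1.80 RPKM), and TOR2A was above CLPX (0.870 RPKM) and CLPB (0.385 RPKM). These orders were not tested.

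Of 51 listed symbols of VCP cofactors and of endoplasmic-reticulum-associated degradation, the route by which misfolded proteins leave the endoplasmic reticulum for the proteasome, 9 were in the table. Of these, 5 passed 1 RPKM by genomic span and all 9 by exon union, against 46.4% and 74.4% of all 332 genes. By exon union the members had a median of 8.21 RPKM, these 9 genes 7.87 RPKM and all 332 genes 5.17 RPKM. STUB1, a ubiquitin ligase that works with HSP70 and HSP90, was the highest of them, with 45.2 and 43.2 RPKM by genomic span. By longest coding transcript STUB1 was also above VCP, at 74.9 ± 2.37 RPKM against 62.8 ± 3.01 RPKM. Per kilobase of exon VCP stood at 50.5 ± 2.42 RPKM and STUB1 at 50.5 ± 1.60 RPKM. BAG6, a chaperone that holds membrane proteins in the cytosol, stood at 24.0 ± 2.02 RPKM and its partner SGTA at 15.3 ± 1.37 RPKM on that scale.

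The listed genes acting in or at the endoplasmic reticulum stood lower, an order that was not tested. ERLEC1, a lectin that hands glycoproteins to degradation, stood at 9.63 ± 0.122 RPKM per kilobase of exon. EDEM3, EDEM2 and EDEM1, which act on glycoproteins, stood at 7.87 ± 0.251, 6.56 ± 0.327 and 3.49 ± 0.329 RPKM. The J-domain reductase DNAJC10 was at 4.44 ± 0.0336 RPKM and DNAJB12, a J-domain protein of the membrane, at 6.51 ± 0.763 RPKM. Per kilobase of exon, TOR1A, TOR1B and TOR3A, at 7.59 to 8.95 RPKM, lay within the range of these 6 genes, and TOR2A and TOR4A below it. By genomic span these 6 genes lay at 0.394 to 1.65 RPKM, with TOR1A, TOR1B, TOR2A and TOR3A above and TOR4A below. By longest coding transcript the 6 lay at 3.84 to 10.3 RPKM. On that scale TOR1A (16.2 RPKM) and TOR3A (10.9 RPKM) were above, TOR1B within, and TOR2A and TOR4A below. The place of TOR2A depends on the length used. Its deposited row names TOR2A-203 of 1523 bases, shorter than the 2477 bases used here. Where TOR2A would stand with that length was not computed.

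For each member, the gene just above and the gene just below it in mean RPKM by genomic span were taken. Their distance from the member was then measured as the difference of mean log2(RPKM + 1) over the 2 libraries. VCP stood between PPIF, the mitochondrial cyclophilin, at 15.2 ± 1.52 RPKM and the HSP90 co-chaperone PTGES3 at 13.1 ± 0.807 RPKM. TOR1B stood between FKBP1A at 3.37 ± 0.438 RPKM and HSPA13 at 3.11 ± 0.155 RPKM. TOR1A stood between DNAJC8 at 3.08 ± 0.178 RPKM and CDC23 at 2.96 ± 0.136 RPKM. TOR3A lay between ANAPC5 and AFG3L2, TOR2A between PPID and DNAJC30, and TOR4A between TXNDC5 and MKKS. The largest of these 12 differences was 0.15, between VCP and PTGES3. With 2 libraries of 1 group, likeness in level is all that can be given.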

How the data were processed

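Per the labels' protocols, Trizol-extracted RNA went into a stranded total RNA kit. STAR 2.6.0b, Bowtie2 2.4.2, Trim Galore 0.6.4 and GRCh38 appear in the submitters' processing notes, without their roles. No source used here gives the counting program or its use of strand.

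The authors deposited 1 table with whole-number read counts per replicate and a mean RPKM. The column prefix NHS is undefined there. The deposited RPKM equals the mean of counts per kilobase of genomic span scaled to a library total, and both totals were recovered by least squares (relative misfit under 1e-12). RPKM per replicate was computed from them, and again with exon unions and longest coding transcripts of GENCODE 29. Whether counts include intronic reads is not given. Exonic values assume that they do not.

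Members, lists and tests were chosen with earlier results of these data known. Differences between members used log2(RPKM + 1), the pooled replicate SD (0.091 over 332 genes) and a 95% normal limit. Libraries were compared with exact binomial tests (scipy 1.17.1), and edgeR 4.0.16 gave alternative scalings. The binomial test was tried on simulated counts. Sequences before gene starts are RefSeq's on GRCh38.p14, matched by symbol for 4 of 6 members (VCP, TOR2A, TOR3A and TOR4A). Genes named were the members, the genes just above and below each in mean RPKM, all listed genes in the table and neighbouring pairs. The pairs named by symbol were chosen after their values were seen.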

Additional observations from a re-analysis of the deposited data

How the results depend on the processing

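The longest coding transcript and the span of GENCODE 29 were lengths chosen after the data were seen, and the other alternatives were planned. All alternatives, planned or not, gave 202 values. Of these, 162 stayed on their side of the limit or within the replicate spread (counts within 1.5 times), 32 moved and 4 reversed. In all, 3 differences fell short of the limit and 3 newly passed it, 1 of each among those that reversed. TOR1A minus TOR1B, -0.06 and not called, became 0.020 with exonic length and 0.75 with the longest coding transcript, where it was called, and lay between -0.14 and 0.014 when a single replicate was used. TOR1B minus TOR3A reversed to -0.21 with the longest coding transcript. A threshold of 5 RPKM left 1 member, 1 other AAA+ gene and 2 VCP cofactor and degradation genes. For the last list, 8 genes passed at 0.5 RPKM and 9 with exonic length or with the longest coding transcript, against 5. The shares of all genes at 5 and at 0.5 RPKM are not given here. Counts at these 2 thresholds therefore cannot be set against a background. The median rank of the members, 87.5, was 128 with exonic length, 146 with the longest coding transcript, 169.5 when length was ignored, and between 84.5 and 88.5 when a single replicate was used. Of the members, 0 were called between the libraries under each scaling, while the table's calls ranged from 14 to 18. No paired analysis was possible because all samples form 1 group. Depth limits TOR4A and TOR2A most.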
